A study of Mus musculus with 2 samples.

Results

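The genes described are 35 genes of nucleolar ribosome biogenesis, taken by symbol from the 43346 genes of the deposited tables. The rule used symbols and no measured values, but the genes were chosen with earlier results of these data known. They cover transcription of ribosomal DNA by RNA polymerase I (8 genes), the protein cores of box C/D and box H/ACA small nucleolar ribonucleoproteins (3 and 4 genes), the chaperone Nolc1 of those particles, processing of the small and of the large ribosomal subunit (5 and 12 genes), and the abundant nucleolar proteins Ncl and Npm1. Total RNA was sequenced from CH12.LX, an immortalized mouse B cell lymphoma line labelled female and of strain B10.H-2aH-4bp/Wts, in 2 libraries labelled biological replicates 1 and 2. Both libraries belong to a single group with no treatment label, so the design holds no contrast between conditions, and the line is the only source of cells. The labels say nothing of how the cultures were kept or whether they were grown apart.

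In the nucleolus, RNA polymerase I transcribes ribosomal DNA into a long precursor that carries the RNAs of the small subunit and most of those of the large subunit. Small nucleolar RNAs guide 2′-O-methylation (box C/D) or pseudouridylation (box H/ACA) of that precursor, and assembly factors fold, cut and package it into the subunits. Proliferating lymphoid cells make many ribosomes, and many of the genes for this pathway are known targets of the transcription factor Myc.

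The libraries held 49278361 counts (replicate 1) and 55950517 counts (replicate 2). Protein-coding genes carried 24.4% of all TPM (a length-normalised share of all transcripts in a library) in replicate 1 and 24.3% in replicate 2, so a TPM here is a share of a total that lay mostly outside protein-coding genes. All 8 B cell markers were detected at 1 TPM or more in both libraries, between 6.09 and 516 TPM. Of 11 markers of T cells, myeloid cells, erythroid cells and liver, 1 was detected at that level (Cd3d, at 1.14 in replicate 1 and 1.45 TPM in replicate 2), and Cd3e was listed at 0 in both.

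All 35 genes were detected at 1 TPM or more in both libraries, against 41.4% of 21474 protein-coding genes. At 10 TPM or more in both stood 32 of the 35, against 14.5% of protein-coding genes; the others were Polr1e, Utp15 and Utp20, which reached 10 TPM in at most 1 library. The median of the mean levels was 31.9 TPM, and the mean levels spanned 120-fold between Utp20 at 7.86 TPM and Npm1 at 944 TPM. Together the genes summed to 2544.51 in replicate 1 and 2150.94 TPM in replicate 2, which is 1.04% (replicate 1) and 0.886% (replicate 2) of the TPM of protein-coding genes. Npm1 alone made up 38.5% of the sum in replicate 1 and 42.2% in replicate 2. In bulk RNA, a smaller share of cells that express a gene and less RNA of it per cell cannot be told apart. Every gene had at least 1440 counts in each library, and the 95% counting intervals of the log2 ratio between libraries were 0.02 to 0.21 wide. For Polr1a the interval, 0.02 to 0.10, was wide beside the ratio of 0.06 by TMM-scaled counts (counts scaled for library size and composition).

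**Figure D1:**
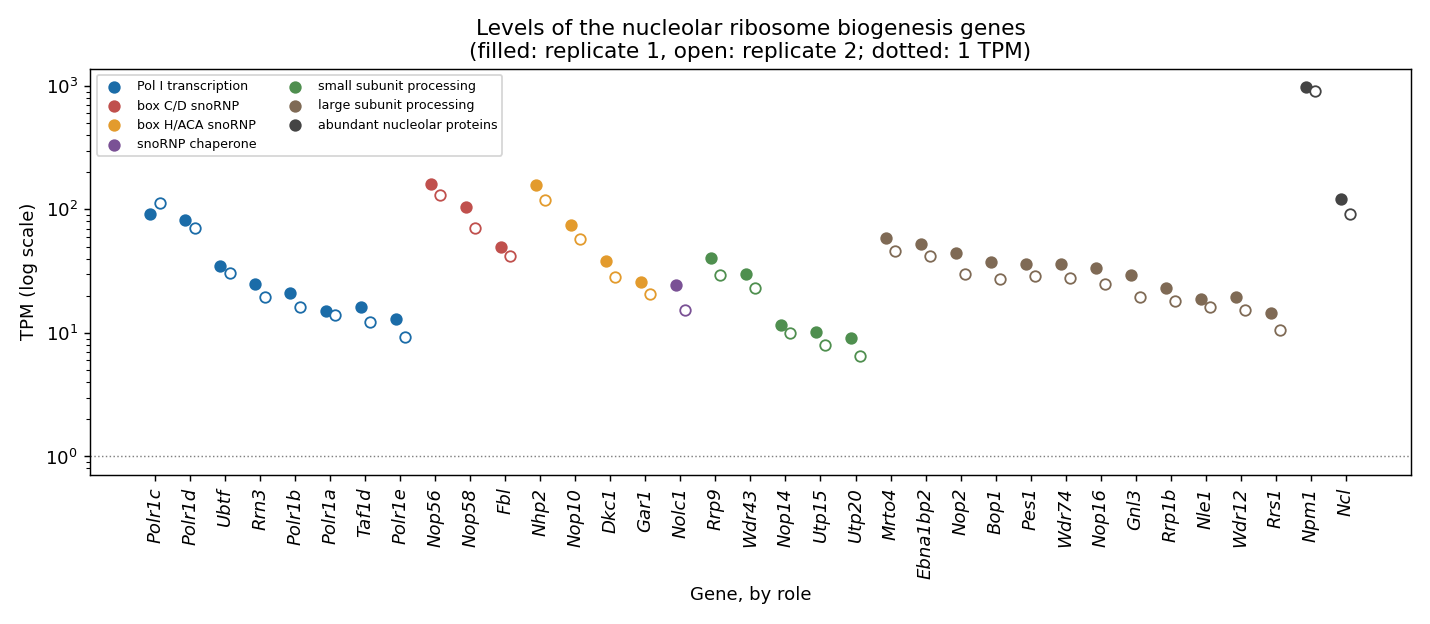
TPM (vertical log axis) of the 35 genes along the horizontal axis, coloured by role, with replicate 1 as filled and replicate 2 as open points and a dotted line at 1 TPM. Mean levels run between 7.86 TPM (Utp20) and 944 TPM (Npm1), all points lie above the dotted line, and the filled point is the upper one for all genes but Polr1c.

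Among the genes of RNA polymerase I transcription, the subunits Polr1c and Polr1d, which RNA polymerase III also uses, stood above the subunits that belong to polymerase I alone. Polr1c was at 91.85 in replicate 1 and 113.77 TPM in replicate 2, and Polr1d at 82.09 (replicate 1) and 70.30 TPM (replicate 2). Polr1a, the largest subunit, was at 14.99 in replicate 1 and 14.09 TPM in replicate 2. By all transcripts, Polr1c was 6.13 times Polr1a in replicate 1 and 8.07 times in replicate 2, and Polr1d 5.48 (replicate 1) and 4.99 times (replicate 2). The level of Polr1d sums a pair of coding transcripts that share little coding sequence, so it is not the RNA level for a single protein. Polr1d-201 was at 46.24 in replicate 1 and 35.82 TPM in replicate 2, and Polr1d-202 at 35.85 (replicate 1) and 34.48 TPM (replicate 2). Either alone was also above Polr1a. Polr1b, the second largest subunit, had 20.93 in replicate 1 and 16.26 TPM in replicate 2. Polr1e, of a heterodimer that aids initiation and elongation, was the lowest of the 8 in the mean, at 13.06 in replicate 1 and 9.25 TPM in replicate 2.

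The genes for factors that bring the polymerase to the ribosomal DNA promoter were of middling RNA level. Ubtf, the architectural factor UBF that keeps ribosomal DNA repeats open, was at 34.74 in replicate 1 and 30.45 TPM in replicate 2. Rrn3, which bridges the polymerase to the promoter complex and responds to growth signals, was at 25.06 (replicate 1) and 19.62 TPM (replicate 2). Taf1d, a subunit of the promoter selectivity complex SL1, was at 16.34 in replicate 1 and 12.16 TPM in replicate 2. In order of mean level the 8 genes ran Polr1c, Polr1d, Ubtf, Rrn3, Polr1b, Polr1a, Taf1d and Polr1e. In 4 of the 7 neighbouring pairs the library values did not overlap. The values of Rrn3 overlapped those of Polr1b, and the values of Taf1d those of Polr1e, but within each library their order was the same. Polr1a and Taf1d also overlapped, and their order turned between libraries.

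Ubtf is known to be made as a longer and a shorter protein that differ by a coding exon within an HMG box, and the shorter form is known to be a poor activator of RNA polymerase I. The transcript tables tell them apart. The exon is shown because the 2 leading transcripts differ by it: it is exon 7 of Ubtf-202 (764 codons), which Ubtf-203 (727 codons) lacks, lies at chr11:102310926-102311036 on the minus strand (mm10, GENCODE M21), and has 111 bases or 37 codons.
Ubtf exon 7: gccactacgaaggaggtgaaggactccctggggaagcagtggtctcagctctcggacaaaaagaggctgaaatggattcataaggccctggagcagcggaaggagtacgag
Long coding transcripts with the exon (4 of them) summed to 19.40 in replicate 1 and 16.82 TPM in replicate 2, and those without it (5) to 12.60 (replicate 1) and 11.99 TPM (replicate 2). The form with the exon thus made up 60.6% of the long coding Ubtf transcripts in replicate 1 and 58.4% in replicate 2 (59.5% ± 1.59, SD, n = 2), and both forms were present in both libraries. The share rests on how reads were divided among overlapping transcript models.

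The genes for the box C/D core were at different RNA levels although their proteins are part of the same core. Protein amounts were not measured. Nop56 was at 161.56 in replicate 1 and 130.29 TPM in replicate 2, its relative Nop58 at 105.40 (replicate 1) and 70.36 TPM (replicate 2), and Fbl, the fibrillarin that carries out the methylation, at 49.80 (replicate 1) and 41.74 TPM (replicate 2). By all transcripts the order Nop56, Nop58, Fbl was the same in both libraries and no values of neighbours overlapped. Nop56 was 3.24 times Fbl in replicate 1 and 3.12 times in replicate 2, and Nop58 was 2.12 (replicate 1) and 1.69 times (replicate 2) Fbl. By transcripts annotated as coding alone, Nop56 was at 126.88 in replicate 1 and 104.61 TPM in replicate 2, and Nop58 at 64.27 (replicate 1) and 42.43 TPM (replicate 2). The values of Nop58 then overlapped those of Fbl. Within each library Nop58 was still the higher, though nearly equal to Fbl in replicate 2. A short Nop58 transcript, Nop58-205, of 373 bases and annotated to nonsense-mediated decay, held 33.12% of that gene's TPM in replicate 1 and 33.65% in replicate 2.

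The RNA levels of the box H/ACA core genes were likewise unequal. Nhp2, an RNA-binding protein of the core, was at 157.25 in replicate 1 and 118.41 TPM in replicate 2. The small protein Nop10 was at 74.22 (replicate 1) and 57.13 TPM (replicate 2). Dkc1, the pseudouridine synthase dyskerin, was at 38.05 in replicate 1 and 28.22 TPM in replicate 2, and Gar1, which joins last and aids substrate release, was at 25.83 (replicate 1) and 20.78 TPM (replicate 2). The order was the same in both libraries with no overlap between neighbours. By all transcripts, Nhp2 was 4.13 times Dkc1 in replicate 1 and 4.20 times in replicate 2. By transcripts annotated as coding alone the order held, but that ratio was less alike between libraries. Nhp2 was then at 130.94 (replicate 1) and 105.95 TPM (replicate 2), Dkc1 at 27.35 (replicate 1) and 16.90 TPM (replicate 2), and Gar1 at 9.78 (replicate 1) and 8.20 TPM (replicate 2). Nolc1, a nucleolar phosphoprotein that escorts both kinds of particle, was at 24.59 in replicate 1 and 15.35 TPM in replicate 2, the widest ratio of TPM between libraries among the 35 genes.

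The 5 genes of the small subunit processome had a median of 10.8 TPM, the lowest among the role groups of the 35 genes; 40 other small subunit genes had a median of 16.2 TPM. Rrp9, a protein specific to the U3 particle of the early precursor, was at 40.28 in replicate 1 and 29.45 TPM in replicate 2, and Wdr43, of the subcomplex that binds the start of the precursor, at 30.04 (replicate 1) and 23.17 TPM (replicate 2). Nop14, a scaffold of the processome, was at 11.53 in replicate 1 and 10.04 TPM in replicate 2. Utp15, a partner of Wdr43 in the same subcomplex, was at 10.21 (replicate 1) and 8.02 TPM (replicate 2), and Utp20, a very large scaffold protein, at 9.18 (replicate 1) and 6.54 TPM (replicate 2). A break lay between Wdr43 and Nop14, where the library values were apart; the other 3 neighbouring pairs overlapped, although the order of all 5 was the same in both libraries.

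By all transcripts, the 12 genes of large subunit processing spanned 4.18-fold in the mean. Of 11 neighbouring pairs, 10 overlapped, and 8 had the same order in both libraries. At the top by that measure was Mrto4, a placeholder for a stalk protein, with 58.95 in replicate 1 and 45.85 TPM in replicate 2. Ebna1bp2, an early assembly factor, came next with 52.63 (replicate 1) and 41.94 TPM (replicate 2). Nop2, an RNA cytosine methyltransferase, followed with 44.47 in replicate 1 and 30.12 TPM in replicate 2. The lowest of the 12 was Rrs1, known from yeast to bring in the particle of the smallest large-subunit RNA, with 14.51 (replicate 1) and 10.59 TPM (replicate 2). Both ends changed by transcripts annotated as coding alone. Mrto4 was then at 34.89 (replicate 1) and 24.25 TPM (replicate 2), and Ebna1bp2 at 17.33 (replicate 1) and 13.05 TPM (replicate 2). Both were below Nop2 in each library. Rrp1b, at 10.61 (replicate 1) and 9.10 TPM (replicate 2), was then below Rrs1 in each library.

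Pes1, Bop1 and Wdr12 form the PeBoW complex, whose depletion is known to block large subunit maturation and proliferation. Bop1 was at 37.69 in replicate 1 and 27.20 TPM in replicate 2, Pes1 at 35.99 (replicate 1) and 28.68 TPM (replicate 2), and Wdr12 at 19.44 (replicate 1) and 15.48 TPM (replicate 2). By all transcripts Pes1 and Bop1 were close to equal, with a ratio of 0.955 in replicate 1 and 1.05 in replicate 2. Its direction turned between libraries. By the same measure Pes1 was 1.85 times Wdr12 in both. By transcripts annotated as coding alone, Pes1 was at 32.44 (replicate 1) and 27.72 TPM (replicate 2). Wdr12 was then at 18.85 (replicate 1) and 15 TPM (replicate 2). Both ratios of Pes1 were then less alike between libraries.

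By all transcripts, the remaining large subunit genes lay between. Wdr74, which takes part in release of late nucleolar particles, was at 36.15 in replicate 1 and 27.69 TPM in replicate 2, Nop16 at 33.85 (replicate 1) and 25.00 TPM (replicate 2), and Gnl3, the GTP-binding protein nucleostemin known from stem and tumour cells, at 29.69 (replicate 1) and 19.69 TPM (replicate 2). Rrp1b was at 23.15 in replicate 1 and 18.28 TPM in replicate 2, and Nle1, known from yeast as an adaptor for the ATPase that remodels the large subunit precursor, at 18.97 (replicate 1) and 16.32 TPM (replicate 2). Gnl3 differed more between libraries than its neighbours in level, so that it overlapped both Nop16 and Rrp1b. Within each library it was below Nop16 and above Rrp1b.

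Npm1 (nucleophosmin, a nucleolar chaperone of histones and ribosomal proteins; chr11:33152287-33163206, minus strand) was at 979.86 in replicate 1 and 907.65 TPM in replicate 2. Ncl (nucleolin, an RNA-binding protein that takes part in polymerase I transcription and early processing; chr1:86344719-86359400, minus strand) was at 122.16 (replicate 1) and 91.05 TPM (replicate 2). Npm1 was 8.02 times Ncl in replicate 1 and 9.97 times in replicate 2. The 4 main coding transcripts of Npm1 did not hold the same shares: Npm1-204 (257 codons) had 48.83% of the gene's TPM in replicate 1 and 37.83% in replicate 2, Npm1-202 (264 codons) 22.45% (replicate 1) and 29.51% (replicate 2), Npm1-201 (292 codons) 18.30% (replicate 1) and 11.51% (replicate 2), and Npm1-203 (285 codons) 9.63% (replicate 1) and 20.54% (replicate 2). Npm1-204 led in both libraries, and the order of Npm1-201 and Npm1-203 turned between them.

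The level of Ncl rested mostly on transcript models that retain introns. Models annotated as coding held 12.01% of its TPM in replicate 1 and 9.70% in replicate 2. Retained-intron models held 88.0% (replicate 1) and 90.3% (replicate 2). Ncl-205, of 601 bases, alone had 51.01% of the TPM in replicate 1 and 53.11% in replicate 2, and Ncl-202, of 3072 bases, had 30.73% (replicate 1) and 33.91% (replicate 2), while the leading coding model Ncl-201, of 8202 bases, had 9.90% (replicate 1) and 8.0% (replicate 2). TPM divides by length, and by reads the split was more even: coding models held 41.2% of the gene's expected counts in replicate 1 and 34.5% in replicate 2. Taken by coding models alone, Ncl was at 14.67 in replicate 1 and 8.83 TPM in replicate 2 and ranked 28 of the 35 genes, against rank 4 by its whole level. How far unspliced RNA or the division of reads among models contributed was not tested.

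Across the 35 genes, 15 had all of their TPM in coding models. Those 15 have no model of another class in GENCODE M4, the annotation of the main values, so that their share was fixed by that annotation. GENCODE M21 does hold non-coding models of Gnl3 and Taf1d, which are among the 15. The median coding share of the 35 was 97.9%, close to the 96.6% of 5308 protein-coding genes averaging at least 5 TPM. A coding share under 50% in both libraries was found for 4 of 35 genes, or 11.4%, against 6.41% of those protein-coding genes. Besides Ncl these were Ebna1bp2 (32.9% in replicate 1 and 31.1% in replicate 2), Gar1 (37.9% in replicate 1 and 39.5% in replicate 2) and Rrp1b (45.9% in replicate 1 and 49.8% in replicate 2). By expected counts the coding models of these 3 held 53.5% to 75.9% of the reads, with Ebna1bp2 lowest at 58.8% in replicate 1 and 53.5% in replicate 2. Gar1 paired a coding model of 1271 bases with a retained-intron model of 418 bases, Gar1-205, which had 62.02% of its TPM in replicate 1 and 59.72% in replicate 2.

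**Figure D2:**
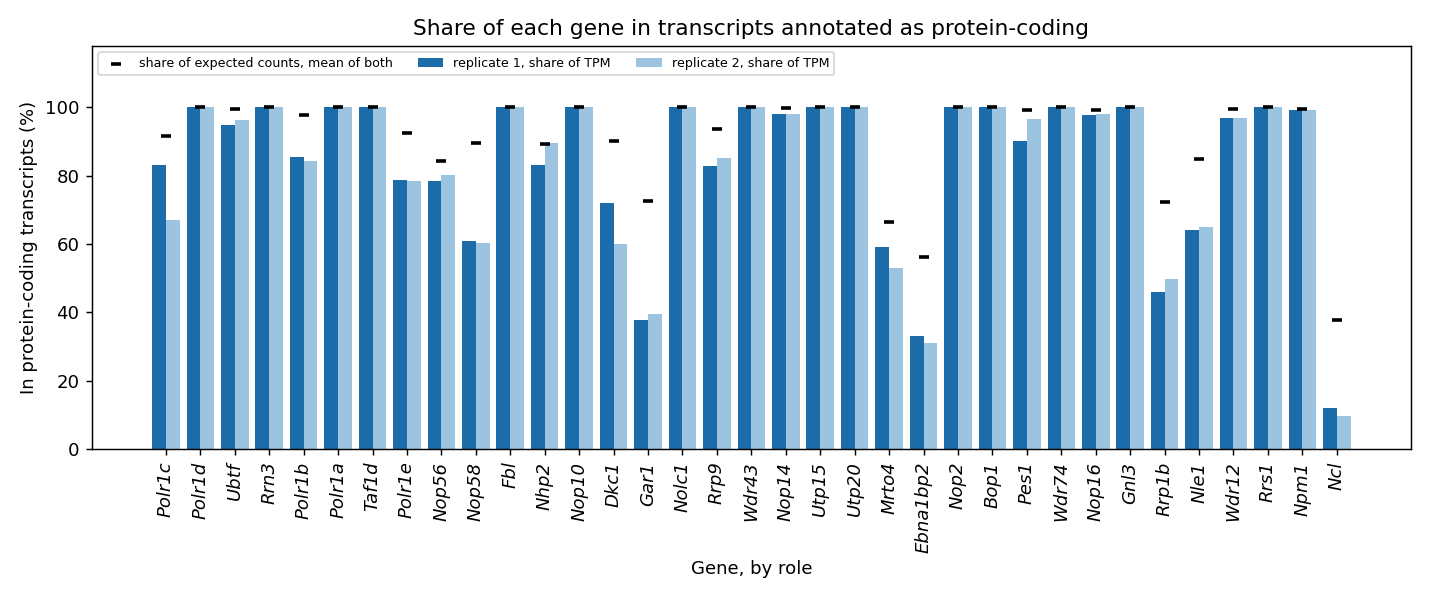
Percent of each gene's TPM held by transcript models annotated as coding (vertical axis), as bars for replicate 1 (dark) and replicate 2 (light) over the 35 genes, with a dash for the share of expected counts averaged over both libraries. Ncl has the lowest bars, at 12.01% in replicate 1 and 9.70% in replicate 2, and its dash at 37.8% is also the lowest.

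Several of these genes also carry small nucleolar RNA genes within them, the same class of RNA that the box C/D and H/ACA proteins bind. In GENCODE M21, 27 such genes lay inside 7 of the 35 (8 in Taf1d, 5 in Nop56, 4 in Nop58, 3 each in Gnl3, Ncl and Wdr43, and 1 in Dkc1), all on the strand of the host. Hosts made up 20% of the 35 genes, against 2.64% of the 5308 protein-coding genes (140 genes). By position, 9 were in introns of every model, 17 overlapped an exon of a non-coding model and 1 an exon of a coding model. On the RNA's own strand, the C box letters TGATGA within the first 15 bases together with the D box letters CTGA within the last 12 bases were found in 33.3% of the 27, against 19.4% of all 1507 annotated small nucleolar RNA genes. The H/ACA letters ACA, placed 3 bases before the 3′ end, were found in 22.2%, against 18% of all; the other 12 held neither in these places. The sequences of 3 box C/D RNAs are shown because their hosts are themselves box C/D proteins or nucleolin, with the C and D box letters in capitals (mm10, GENCODE M21). Snord110 lies in Nop56 at chr2:130275506-130275573 (plus strand), Snord11 in Nop58 at chr1:59704790-59704873 (plus strand) and Snord82 in Ncl at chr1:86356261-86356330 (minus strand).
Snord110: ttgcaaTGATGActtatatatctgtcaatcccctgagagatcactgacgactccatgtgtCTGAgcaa
Snord11: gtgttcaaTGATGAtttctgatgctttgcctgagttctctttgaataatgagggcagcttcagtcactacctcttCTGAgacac
Snord82: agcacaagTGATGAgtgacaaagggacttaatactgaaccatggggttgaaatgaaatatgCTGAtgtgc

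These small RNAs themselves could hardly be measured. Of the 27, 22 were listed at 0 counts in both libraries, those 3 included, and 5 had any count. Gm25791 in Taf1d (137 bases, chr9:15314845-15314981, plus strand) had 741 counts in replicate 1 and 729 counts in replicate 2. Its deposited level was nonetheless 6402.23 in replicate 1 and 0 TPM in replicate 2, with an effective length of 1.05 bases in replicate 1 and 0 in replicate 2. Nearly equal counts were thus deposited as a very high level and as none, and a level of a gene shorter than the sequenced fragments cannot be read from these tables. Its neighbour Gm22620 (133 bases), chosen after its values were seen, had 56 counts in replicate 1 and 53 counts in replicate 2 at 0 TPM in both.

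The replicates did not hold these genes at the same share. By the log2 ratio of replicate 1 over replicate 2 (TPM plus 0.1), 34 of the 35 genes were higher in replicate 1 and Polr1c was lower. Of 9851 genes averaging at least 1 TPM, 56.1% were higher in replicate 1. The median log2 ratio was 0.36 over the 35 genes, a 1.29-fold ratio, and 0.04 over the 9851 genes, whose quartiles were -0.16 and 0.23; 28 of the 35 lay above the upper quartile. By 25% or more, 25 genes were higher in replicate 1, against 14.5% of the 9851, and 0 were lower by the same factor, against 13.5%. Past 1.5-fold stood 2 genes higher, Nolc1 and Gnl3, against 2.53%, and 0 lower, against 4.84%. Among the 5308 protein-coding genes averaging at least 5 TPM, which are nearer to the 35 in level, 63.5% were higher in replicate 1; 16.4% were higher and 8.65% lower by the first factor, and 2.02% were higher and 2.71% lower by 1.5-fold. With 1 library on each side these ratios have no replicate check and no p-value, and they describe these libraries only.

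**Figure D3:**
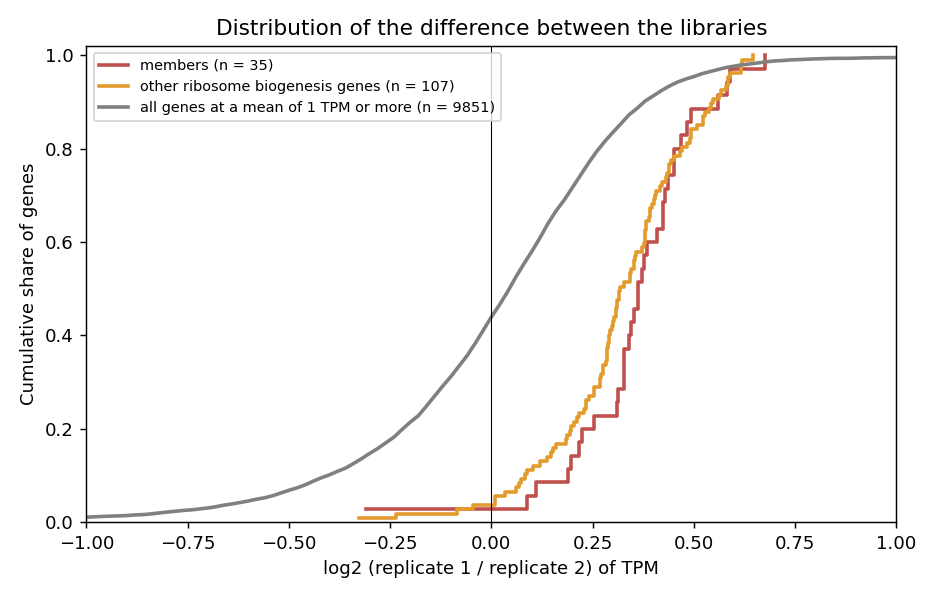
Cumulative share of genes (vertical axis) by log2 ratio of TPM in replicate 1 over replicate 2 (horizontal axis) for the 35 genes (red), 107 other ribosome biogenesis genes (orange) and 9851 genes averaging at least 1 TPM (grey). The red and orange curves, with medians of 0.36 and 0.32, lie to the right of the grey curve with its median of 0.04, and the red curve has 1 gene, Polr1c, below 0.

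The deposited credibility bounds of TPM, which cover the assignment and counting of reads and not the spread between cultures, did not overlap between libraries for any of the 35 genes: 34 were higher in replicate 1 and Polr1c was lower. Such a gap was common, at 29.6% of the 9851 genes higher in replicate 1 and 19.0% lower, and among the 5308 protein-coding genes the shares were 41.6% higher and 18.3% lower. By counts scaled with TMM, 34 genes had a 95% interval of the log2 ratio above 0 and Polr1c had one below 0. Those intervals cover counting error only. The share of all genes by this interval rule was not counted, so these numbers have no background here.

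The 3 genes with the highest ratio by TPM were Nolc1, Gnl3 and Nop58; by counts Dkc1 was second, at 0.61, and by coding models Ncl and Dkc1 led, at 0.73 and 0.69. Nolc1 (chr19:46075863-46085530, plus strand) had a log2 TPM ratio of 0.68 and a log2 ratio of TMM-scaled counts of 0.65 (95% interval 0.61 to 0.70). Gnl3 (chr14:31012433-31019152, minus strand) had 0.59 by TPM and 0.57 by counts (0.51 to 0.63). Nop58 (chr1:59684971-59719044, plus strand) had 0.58 by TPM and 0.50 by counts. Nop2 was next, at 0.56 by TPM and 0.54 by counts, and lay just under the 1.5-fold line together with Nop58.

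The 3 genes with the lowest ratio by TPM were Polr1c, Polr1a and Npm1. Polr1a (chr6:71909053-71984935, plus strand) was nearly equal, with a log2 TPM ratio of 0.09 and 0.06 by counts (0.02 to 0.10), and Npm1 had 0.11 by TPM and 0.16 by counts (0.15 to 0.17). Polr1c (chr17:46243920-46248054, minus strand) had -0.31 by TPM but -0.11 by counts (-0.15 to -0.08). Its transcript models differed in this: Polr1c-206, of 432 bases and annotated to nonsense-mediated decay, was at 12.09 in replicate 1 and 34.45 TPM in replicate 2. The coding models of Polr1c were together at 76.31 in replicate 1 and 76.26 TPM in replicate 2, a log2 ratio of 0.00. Counted by coding models, all 35 genes were at or above equality in replicate 1 (Polr1c by less than the second decimal), and their median log2 ratio was 0.38. By coding models no background over all genes was computed. By TPM of all transcripts Dkc1 had 0.43 and Ncl 0.42.

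By role the median log2 ratios lay close together apart from Nolc1. They were 0.29 for polymerase I transcription (7 of 8 genes higher in replicate 1, 4 by 25% or more), 0.31 for the box C/D core (3 of 3, 1 by 25% or more) and 0.39 for the box H/ACA core (4 of 4, 3 by 25% or more). Small subunit processing had 0.37 (5 of 5, 4 by 25% or more) and large subunit processing 0.37 (12 of 12, 11 by 25% or more; Nle1 was the other, at 0.22). Ncl had 0.42 and Npm1 0.11.

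**Figure D4:**
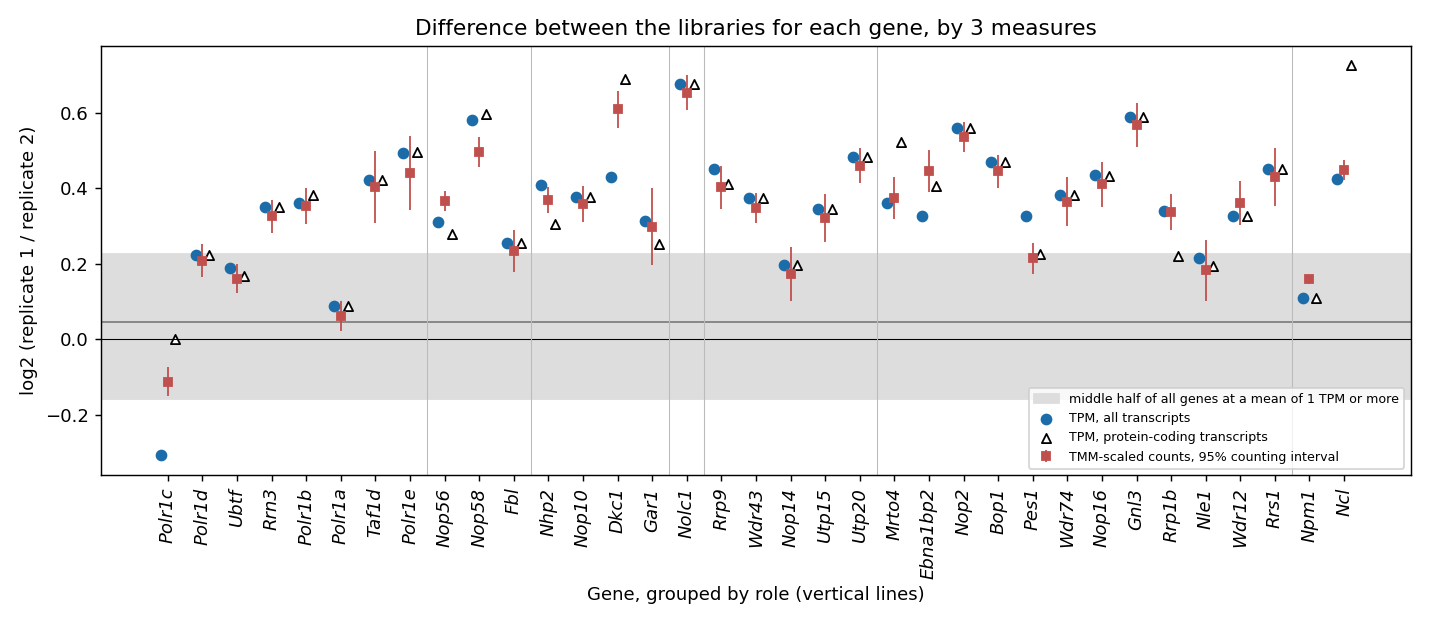
Log2 ratio of replicate 1 over replicate 2 (vertical axis) for each of the 35 genes by role, from TPM of all transcripts (circles), TPM of coding transcripts (triangles) and TMM-scaled counts with 95% counting intervals (squares); the grey band spans the quartiles of the 9851 genes, -0.16 to 0.23, with their median as a line. Nolc1 is high by each measure, near 0.68 by TPM, while Polr1c is at -0.31 by TPM, -0.11 by counts and 0.00 by coding transcripts.

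Other genes of the same pathway, 107 in number and listed by role without these 35, stood the same way. All 107 were detected and 70 were at 10 TPM or more in both libraries, against 41.4% and 14.5% of protein-coding genes. Of the 107, 103 were higher and 4 lower in replicate 1, and their median log2 ratio was 0.32. By 25% or more, 53 were higher, against 14.5% of the 9851 genes, and 1 was lower by the same factor, against 13.5%. The medians were 0.28 for 13 further polymerase I genes, 0.36 for 40 of small subunit processing, 0.31 for 43 of large subunit processing and 0.29 for 11 of small nucleolar particle assembly. The highest of these in mean level were Ppan, a large subunit factor, at 97.28 in replicate 1 and 91.80 TPM in replicate 2, and Emg1, a methyltransferase of the small subunit RNA, at 103.34 (replicate 1) and 82.96 TPM (replicate 2). Snu13, for the fourth core protein of the box C/D particle, was at 91.79 (replicate 1) and 67.96 TPM (replicate 2). By all transcripts this lay between Nop58 and Fbl in both libraries. By coding models alone Nop58 was at 64.27 (replicate 1) and 42.43 TPM (replicate 2), and Snu13 was not examined by that measure. A difference in ratio between the 35 genes and the 107 was not tested.

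Promoter letters were read for 31 of the 35 genes from RefSeq windows on GRCm38.p6, from 250 bases before to 50 bases after the annotated start. The E-box CACGTG, which reads the same on both strands and which Myc with its partner Max is known to bind, was present in 6 of the 31 (19.4%). It was present in 21.8% of 87 other ribosome biogenesis genes, 13.2% of 4261 protein-coding genes averaging at least 5 TPM, and 8.09% of 27025 genes. Before the start alone it was in 2 of the 31, or 6.45%, against 10.9% of the 4261 and 6.86% of all; these were Nop2 and Rrn3, and in Pes1, Nle1, Wdr43 and Utp20 it lay after the start. The 250 bases before the start of Nop2 (chr6:125131633-125131882, plus strand) and Rrn3 (chr16:13780449-13780698, plus strand, which holds the letters in a pair of places) are shown for these matches, with CACGTG in capitals.
Nop2: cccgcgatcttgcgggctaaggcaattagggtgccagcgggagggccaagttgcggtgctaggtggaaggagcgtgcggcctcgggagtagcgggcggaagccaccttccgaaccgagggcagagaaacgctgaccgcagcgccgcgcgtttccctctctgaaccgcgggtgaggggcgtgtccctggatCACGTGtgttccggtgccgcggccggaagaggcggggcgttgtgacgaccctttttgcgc
Rrn3: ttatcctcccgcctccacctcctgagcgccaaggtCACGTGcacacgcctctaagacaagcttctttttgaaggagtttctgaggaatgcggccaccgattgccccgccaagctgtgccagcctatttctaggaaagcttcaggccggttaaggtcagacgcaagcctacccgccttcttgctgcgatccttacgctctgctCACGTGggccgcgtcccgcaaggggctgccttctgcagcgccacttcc
A match describes letters only, and binding was not measured here.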

How the data were processed

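Gene and transcript tables of 2 total RNA libraries were used as the authors deposited them: expected counts (fractional where reads fit several models), TPM, FPKM, posterior mean TPM and credibility bounds per gene, and the percent of each gene's TPM held by each transcript, per the file headers. The assembly is mm10, per the labels. The sources used here do not name the aligner, the quantifier or the strand setting. The main tables used GENCODE M4 annotation, with M2 and M3 tables as alternatives. Symbols, transcript classes and coordinates came from GENCODE M21. 14 of the 35 genes overlap an exon of another gene on the opposite strand and 5 overlap a small RNA gene on their own strand, and 19 have no overlap.

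Ratios were log2((TPM in replicate 1 + 0.1)/(TPM in replicate 2 + 0.1)), with genes averaging at least 1 TPM as background. Expected counts were rounded and scaled by TMM (edgeR 4.0.16, R 4.3.3) on 15438 genes with at least 10 counts, with exact conditional Clopper-Pearson 95% intervals. Reads carry no molecular identifiers, so these cover counting error only. DESeq2 1.42.0 gave size factors as an alternative. Other steps used Python 3.11.15, numpy 2.4.6, pandas 2.3.3, scipy 1.17.1 and matplotlib 3.10.9. The interval code was tested on simulated data. No differential test was run, since both libraries are 1 group, and the SD of 2 libraries describes their spread, which may be technical. The members and lists were chosen with earlier results of these data known. Named for their ratio were the 3 genes at each end. Transcripts were named at 10% or more of a gene's TPM in both libraries. Exceptions were Ncl-201, under 10% in both, and Npm1-203, under 10% in replicate 1. Of the other pathway genes listed, 1 had no match and is not analysed here. Protein sequences are not analysed here.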

Additional observations from a re-analysis of the deposited data

How the results depend on the processing

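Under 9 other settings (M2 and M3 annotation, posterior mean TPM, TPM rescaled to protein-coding genes, FPKM, TMM-scaled counts, DESeq2 size factors, and pseudocounts of 0.01 and 1) 34 of the 35 genes were higher in replicate 1 and Polr1c was lower. The median log2 ratio of all genes moved between 0.03 and 0.10, and that of the 35 genes lay 0.32 to 0.34 above it. The median of the 35, 0.36 in the values reported, was 0.36 with rescaled TPM, 0.42 with FPKM, 0.37 with DESeq2 size factors, 0.36 with a pseudocount of 1 and 0.38 with protein-coding transcripts only, an alternative chosen after seeing the data. The count higher by 25% or more, 25 in the values reported, lay between 21 (pseudocount of 1) and 27 (FPKM). Past 1.5-fold the count, 2 in the values reported, was 1 with M2, M3, rescaled TPM or a pseudocount of 1. It was 4 with FPKM and 5 with protein-coding transcripts only. No share over all genes was computed for protein-coding transcripts only. The log2 ratio of Polr1c was 0.00094 with protein-coding transcripts only, against -0.31 with all transcripts. The median level, 31.9 TPM, was 131 TPM after rescaling to protein-coding genes, by construction, and 24.7 TPM with protein-coding transcripts only. With either library alone the median level lay between 27.2 TPM (replicate 2 alone) and 34.7 TPM (replicate 1 alone), 35 genes were detected in each, and 32 to 34 were at 10 TPM or more. Of 350 ratios of single genes, 298 changed by no more than 0.5 times the width of their counting interval, 51 by more, and 1 reversed. No paired analysis was possible because the 2 libraries form a single group. Counting error bears on many ratios by TMM-scaled counts. The intervals of Gar1 (0.20 to 0.40) and Wdr12 (0.30 to 0.42) held the log2 value of 0.32 that marks 25% higher. So did those of Polr1b, Rrn3, Taf1d, Nop10, Utp15, Wdr43, Mrto4, Wdr74 and Rrp1b. The cause of the low counts of the small nucleolar RNAs was not tested.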

Other observations

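Of the 107 other ribosome biogenesis genes, 4 were lower in replicate 1. Nop53, a large subunit factor that recruits the exosome, was at 46.73 in replicate 1 and 58.60 TPM in replicate 2, with a log2 ratio of -0.33. Ruvbl2, an ATPase that takes part in the assembly of small nucleolar particles and in chromatin remodelling, was at 47.71 (replicate 1) and 56.21 TPM (replicate 2), with -0.24. Nsa2 (21.45 in replicate 1 and 22.74 TPM in replicate 2) and Taf1b (5.28 in replicate 1 and 5.45 TPM in replicate 2) were nearly equal, at -0.08 and -0.04. Among the same 107, the deposited bounds of TPM were apart with replicate 1 higher for 91 genes and lower for 3, and overlapped for 13. Of the 9851 genes averaging at least 1 TPM, 29.6% were higher and 19.0% lower by that rule.

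The gene Polr1d was split between coding transcripts that share little coding sequence. Coding exons with no overlap in the other transcript made up 373 bases of Polr1d-201 and 352 bases of Polr1d-202. Which of them encodes the subunit of RNA polymerases I and III was not examined. Polr1d-201 (133 codons) held 56.33% of its TPM in replicate 1 and 50.95% in replicate 2, and Polr1d-202 (126 codons) held 43.67% (replicate 1) and 49.05% (replicate 2). In Taf1d the split was steadier, with Taf1d-202 at 59.29% in replicate 1 and 59.40% in replicate 2. Of the 35 genes, 14 had a single transcript with at least 90% of the TPM in both libraries. All of these but Nop14 have only a single transcript in GENCODE M4, so that their share was fixed by that annotation. In Nop14 the leading transcript held 98.14% in replicate 1 and 98.22% in replicate 2.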
